A study of Homo sapiens with 12 samples.

Results

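The transcripts of 9 genes for acute phase and S100 secretory proteins were followed in RNA-seq libraries of the triple-negative breast cancer (TNBC) cell lines HCC70 and MDA-MB468: SERPINA3, S100P, LCN2, S100A8, S100A9, SAA1, SAA2, C3 and CFB. They were found by symbol, and all 9 are listed in each of the 3 deposited tables. The HCC70 table lists 16491 genes, the MDA-MB468 table of the combination experiment (XY018, ATV and both) lists 18217, and the MDA-MB468 table of the GSK805 experiment lists 57909. SERPINA3 and S100P were selected on measured values, because both were higher with every antagonist, and the other 7 were added as epithelial defence genes of a like kind with those values known. The levels and ratios of the 9 genes are therefore a description, and no test was made on them.

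Both lines were grown as cultures with no stated genetic change and treated for 24 h, and each condition is a single library of 1 established line, so that no difference has a replicate check. HCC70 cells received vehicle, XY018 at 1.25 μM, XY018 at 2.5 μM, 1.25 μM of atorvastatin (ATV), or 1.25 μM of each compound together. MDA-MB468 cells received these 5 conditions too, and a further experiment set GSK805 at 2.5 μM against its own vehicle. XY018 and GSK805 are antagonists of the nuclear receptor RORγ, and ATV is a statin, an inhibitor of the cholesterol-synthesis enzyme HMG-CoA reductase. The study asked which genes depend on RORγ in TNBC cells and how the antagonists alter the response to a statin.

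Acute phase proteins are secreted proteins whose blood level moves with inflammation. The liver is their main source, and inflamed or transformed epithelium makes several of them too, mostly under cytokines of the IL-6 and IL-1 families acting through STAT3, C/EBP and NF-κB factors. S100 proteins are small calcium-binding proteins of the EF-hand type, several of which leave the cell and bind receptors such as RAGE (AGER) and TLR4. Among the genes followed here, SERPINA3 encodes α1-antichymotrypsin, an inhibitor of serine proteases, and S100P a ligand of RAGE. S100A8 and S100A9 encode the subunits of calprotectin, which withholds zinc and manganese from microbes, and LCN2 encodes lipocalin 2, which binds the iron carriers of bacteria. SAA1 and SAA2 are the inducible serum amyloid A proteins, C3 is the central complement component, and CFB encodes factor B of the alternative complement pathway.

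Values are FPKM, the fragments of a gene per kilobase of its transcript and per mapped fragments of its library. Depth was estimated from the spacing of low values at 8800000 to 9800000 fragments per HCC70 library, 17600000 to 19800000 per MDA-MB468 library of the combination experiment, and 8350000 and 8650000 in the GSK805 pair. Treated and vehicle libraries of the same table were set against each other as a log2 ratio after adding 0.1 FPKM to either value. Genes entered if they reached 1 FPKM in one of the libraries. A gene was counted as higher or lower when the ratio was at least 1.5-fold, and all 9 genes passed the filter in all 9 comparisons. Intervals are 95% counting intervals from the estimated fragments, and cover counting error only. In the GSK805 table the 10 most abundant entries held 46.4% or more of the summed FPKM, against 6.72% to 16.6% in the other libraries, and the log2 ratios of all genes had an SD of 1.53, against 0.220 to 0.669 in the other 8 comparisons. The ratios given for GSK805 therefore use the vehicle of its own table. Its vehicle is set beside those of the other tables, and GSK805 beside the other MDA-MB468 vehicle, as a description only.

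The label as breast epithelium was checked against marker genes. Of 10 basal and epithelial markers, 9 or 10 were at 1 FPKM or above in every library, and their summed level ranged from 1336 to 2183 FPKM in HCC70, from 1984 to 3071 FPKM in the combination experiment in MDA-MB468, and was 3055 and 2145 FPKM in the GSK805 pair. In each table the sum was lower in every library with an antagonist than with vehicle, and KRT5, KRT14, KRT17 or KRT8, keratins of basal and luminal epithelium, were among the markers lower by 1.5-fold. KRT6B went both ways. It was lower by 1.5-fold with XY018, alone and with ATV, in HCC70, and higher with XY018, ATV and both in MDA-MB468. At 2.5 μM XY018 the sum was 1600 FPKM against 2183 FPKM in HCC70 and 1984 FPKM against 3071 FPKM in MDA-MB468. The part of this in the results on the 9 genes was not tested. Liver makes most acute phase protein in the body, but of 10 hepatocyte markers 1 or 2 reached 1 FPKM in any library, these being CYP2E1 or TF in most, and ALB, the defining marker, did not reach it. Their summed level was 2.13 to 9.48 FPKM in HCC70 and in the combination experiment. In the GSK805 pair it was 85.5 FPKM with vehicle and 39.3 FPKM with GSK805, with TF at 85.2 and 38.0 FPKM. Myeloid cells are the main source of calprotectin, and 3 to 5 of 10 myeloid markers reached 1 FPKM. Most of their summed level, 256 to 517 FPKM in HCC70, 27.2 to 34.6 FPKM in the combination experiment in MDA-MB468 and 103 and 118 FPKM in the GSK805 pair, came from CD14, CD68 and CSF3R. CD14, the lipopolysaccharide co-receptor, was at 170.0 FPKM in HCC70 with vehicle and 419 FPKM with XY018 at 2.5 μM, and was lower with both antagonists in MDA-MB468. Other markers of the list were higher there. CD68 and PTPRC, the pan-leukocyte gene CD45, were higher with XY018 at 2.5 μM (CD68 at 16.4 against 4.42 FPKM and PTPRC at 1.06 against 0.60 FPKM), CD68, CSF1R and LYZ were higher with both compounds, and CD68 and CSF3R were higher with GSK805, where CSF1R was lower. PTPRC, below 1 FPKM with vehicle, reached it in the treated library alone, so that its direction is no result. CSF1R in the GSK805 pair reached 1 FPKM with vehicle alone, so that its lower call is no result either. With both compounds in MDA-MB468, 5 markers reached 1 FPKM against 4 with vehicle, so that a higher call there may be fixed likewise. The integrin ITGAM did not reach 1 FPKM, and MPO, TYROBP and FCGR3B, which define granulocytes and monocytes, were at 0.04 FPKM or below where listed. The part of these markers in the results on calprotectin was not tested. In whole cultures, fewer cells of a type and less RNA per cell cannot be told apart.

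The 9 genes were more abundant in HCC70 than in the MDA-MB468 vehicle library of the combination experiment. In HCC70 with vehicle, S100A9, S100A8 and LCN2 were the genes with the 3rd, 5th and 7th highest FPKM of 16489, at 8360, 6155 and 5323 FPKM, followed by SAA1 (636 FPKM), C3 (335 FPKM), SERPINA3 (244 FPKM), CFB (220 FPKM), S100P (191 FPKM) and SAA2 (66.8 FPKM). Together they took 4.37% to 4.76% of all FPKM in an HCC70 library. In MDA-MB468 with the vehicle of the combination experiment the order was S100A9 (551 FPKM), LCN2 (520 FPKM), S100A8 (81.8 FPKM), SAA1 (74.1 FPKM), C3 (59.8 FPKM), CFB (37.1 FPKM), SERPINA3 (36.5 FPKM), S100P (25.1 FPKM) and SAA2 (16.5 FPKM), and together they took 0.265% to 0.326%. CFB and SERPINA3 lay close together there, and no order between neighbouring genes has a replicate check. The level in HCC70 was from 4.06 times (SAA2) to 75.3 times (S100A8) that in MDA-MB468, in tables that were normalized separately. Against the other MDA-MB468 vehicle library, of the GSK805 experiment, the excess was small for some genes, with SERPINA3 at 244 against 234 FPKM, S100P at 191 against 148 FPKM and C3 at 335 against 185 FPKM. It was larger for CFB (220 against 7.48 FPKM), LCN2 (5323 against 274 FPKM), S100A8 (6155 against 357 FPKM), SAA1 (636 against 42.3 FPKM), S100A9 (8360 against 1522 FPKM) and SAA2 (66.8 against 25.8 FPKM). Of all FPKM the 9 genes took 4.76% in HCC70 with vehicle and 0.114% in that library, so that like FPKM need not mean a like level.

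The second MDA-MB468 vehicle library, of the GSK805 experiment, gave another picture of the same untreated line. SERPINA3 stood there at 6.39 times, S100P at 5.89 times, S100A8 at 4.36 times and C3 at 3.10 times the FPKM of the first vehicle library, while CFB stood at 0.202 times, LCN2 at 0.527 times and SAA1 at 0.570 times. The tables differ in annotation and in the transcript length used for scaling, and the part of these differences in any result was not tested. Set against the first vehicle library, the log2 ratio with GSK805 changed sign for S100A8 (0.65), S100A9 (0.55), C3 (1.06) and CFB (−1.26).

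**Figure D1:**
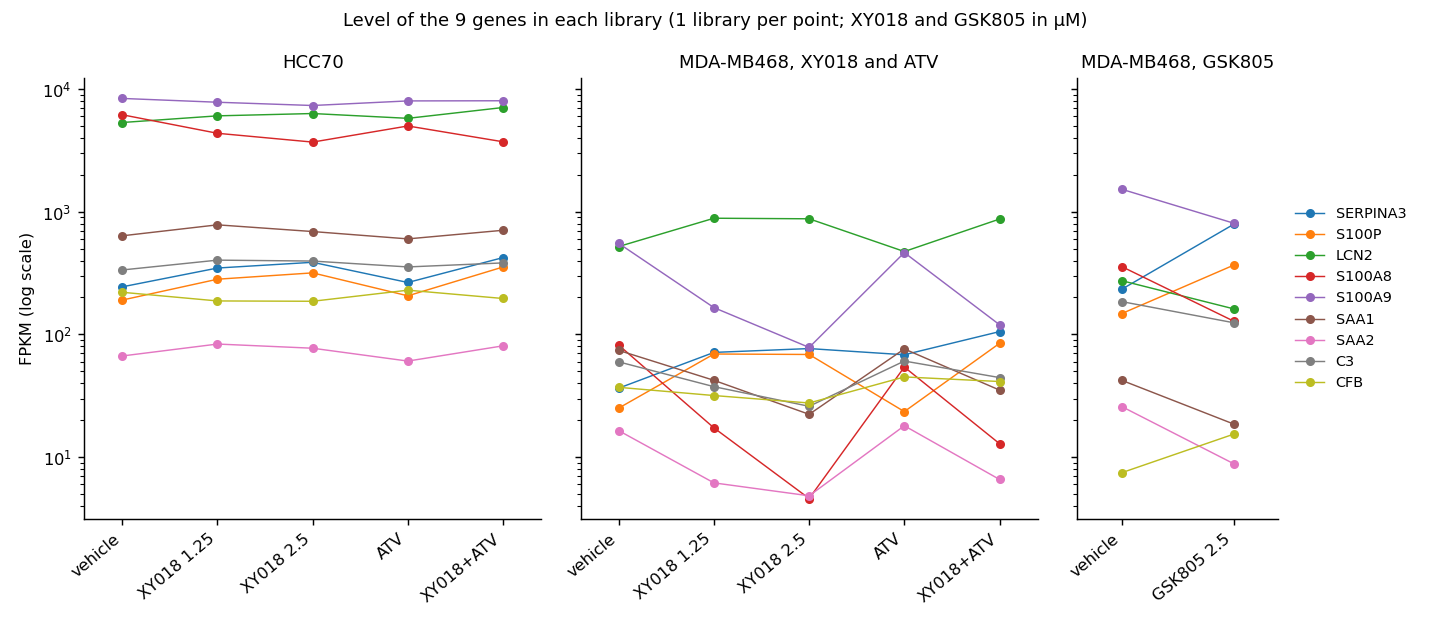
FPKM on a log axis for the 9 genes in each of the 12 libraries, 1 point per library, with lines joining the points of a gene within a table to guide the eye. S100A9, S100A8 and LCN2 lie at 3687 FPKM or above in every HCC70 library. In MDA-MB468, S100A8 goes from 81.8 FPKM with vehicle to 4.61 FPKM with XY018 at 2.5 μM while SERPINA3 and S100P lie higher with XY018 than with vehicle.

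The 9 genes did not move as a block. With XY018 at 2.5 μM, 2 of the 9 were higher and 1 was lower in HCC70, where 2.62% of 11721 genes were higher and 3.26% lower. In MDA-MB468, 3 were higher and 5 lower, where 14.1% of 11919 genes were higher and 14.5% lower. With GSK805 at 2.5 μM, 3 were higher and 5 lower, where 17.6% of 19951 genes were higher and 16.6% lower. Since these values chose the genes, nothing is read from the counts. The median log2 ratio of the 9 genes was 0.21 in HCC70 and −1.20 in MDA-MB468 with XY018 at 2.5 μM, and −0.76 with GSK805, against −0.02, 0.00193 and 0.00747 for all genes compared.

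SERPINA3 (GRCh37 chr14:95078721-95090392, forward strand) and S100P (chr4:6695605-6698897, forward strand) were, of the 9, those higher in all 7 libraries that had received an antagonist. The 200 bases upstream of their RefSeq start sites are shown because these are the genes selected for being higher with every antagonist, with capitals marking the TATA box motif TATAAA where it occurs. Positions are those of RefSeq in build GRCh38.p14, chr14:94612191-94612390 for SERPINA3 and chr4:6693678-6693877 for S100P, both on the forward strand.
SERPINA3: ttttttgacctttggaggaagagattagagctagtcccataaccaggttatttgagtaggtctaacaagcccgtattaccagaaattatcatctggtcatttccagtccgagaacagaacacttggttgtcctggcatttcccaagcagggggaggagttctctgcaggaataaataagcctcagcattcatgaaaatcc
S100P: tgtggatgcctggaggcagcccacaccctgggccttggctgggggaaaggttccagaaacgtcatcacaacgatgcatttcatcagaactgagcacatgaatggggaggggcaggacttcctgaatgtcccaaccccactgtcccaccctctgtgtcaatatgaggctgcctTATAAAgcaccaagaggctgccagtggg
In S100P the motif begins 28 bases before the start site, and the SERPINA3 window does not hold these letters. RefSeq promoters were found for 6 of the 9 genes (SERPINA3, S100P, LCN2, S100A8, S100A9 and CFB), and not for SAA1, SAA2 and C3. The 250 bases before the start were searched on both strands for TATAAA, for a STAT motif (TTCNNNGAA), an NF-κB motif (GGGA, any base, T, any base, TCC), a C/EBP motif (TTGCNNAA) and a ROR motif (TAGGTCA), and no match of one overlapped a match of another. TATAAA was found in 4 of the 6 promoters and in 10.7% of 35116 RefSeq promoters, and the ROR motif in 0 of the 6 and in 1.61%. These letter matches are descriptions and not binding sites.

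SERPINA3 was at 244 FPKM in HCC70 with vehicle, 347 FPKM with XY018 at 1.25 μM, 387 FPKM with XY018 at 2.5 μM, 265 FPKM with ATV and 423 FPKM with both compounds. The ATV library lay close to vehicle, and the 3 libraries with XY018 lay above both. In MDA-MB468 the same series was 36.5, 71.4, 76.7, 68.3 and 105 FPKM, so that here every treated library, ATV included, lay above vehicle. In the GSK805 pair it was at 234 FPKM with vehicle and 788 FPKM with the antagonist. The log2 ratios were 0.51 and 0.66 at the 2 doses of XY018 in HCC70, 0.96 and 1.07 in MDA-MB468, and 1.75 with GSK805 (interval 1.69 to 1.82). SERPINA3 was thereby higher by more than 1.5-fold in all comparisons but XY018 at 1.25 μM and ATV in HCC70.

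S100P was at 191 FPKM in HCC70 with vehicle, 282 FPKM with XY018 at 1.25 μM, 317 FPKM with XY018 at 2.5 μM, 206 FPKM with ATV and 354 FPKM with both. Vehicle and ATV again lay together below the libraries that had received XY018. In MDA-MB468 the values were 25.1, 69.3, 68.7, 23.5 and 84.6 FPKM in the same order. This line showed the same split, with the vehicle and ATV libraries low and the 3 libraries with XY018 high. GSK805 brought S100P from 148 to 366 FPKM. The log2 ratios were 0.56 and 0.73 at the 2 doses of XY018 in HCC70, 1.46 and 1.45 in MDA-MB468 and 1.31 with GSK805 (interval 1.12 to 1.49). SERPINA3 and S100P differed most with ATV in MDA-MB468, where the log2 ratio was 0.90 (interval 0.80 to 1.01) for SERPINA3 and −0.10 (−0.38 to 0.19) for S100P.

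Likeness to these 2 genes was measured as the root mean square difference of the log2 ratios over the 9 comparisons, for 9874 genes at 1 FPKM or above in every library. Nearest to SERPINA3 were WFDC2 (0.25), NR1D1 (0.28), RASD2 (0.36), CREBRF (0.39) and HR (0.39). WFDC2 encodes HE4, a secreted protein with the same 4-disulfide fold as the protease inhibitor SLPI, and had a log2 ratio of 0.98 with ATV in MDA-MB468, near that of SERPINA3. Nearest to S100P were NR1D1 (0.21), PGPEP1 (0.28), KLF4 (0.28), RASD2 (0.30) and PIM1 (0.31), where NR1D1 encodes the nuclear receptor REV-ERBα, KLF4 a zinc-finger transcription factor of epithelia and PIM1 a serine/threonine kinase. NR1D1 had log2 ratios of 0.57, 1.40 and 1.25 with XY018 in HCC70, XY018 in MDA-MB468 and GSK805, all at 2.5 μM. SERPINA3 and S100P differed from each other by 0.428 on this measure, which placed SERPINA3 as the gene with the 21st smallest difference from S100P. The ratios given for WFDC2 and NR1D1 are among those by which they were picked, so that their nearness there is part of the choice. All 9 points of each gene rest on the same 12 libraries, and several share a vehicle.

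**Figure D2:**
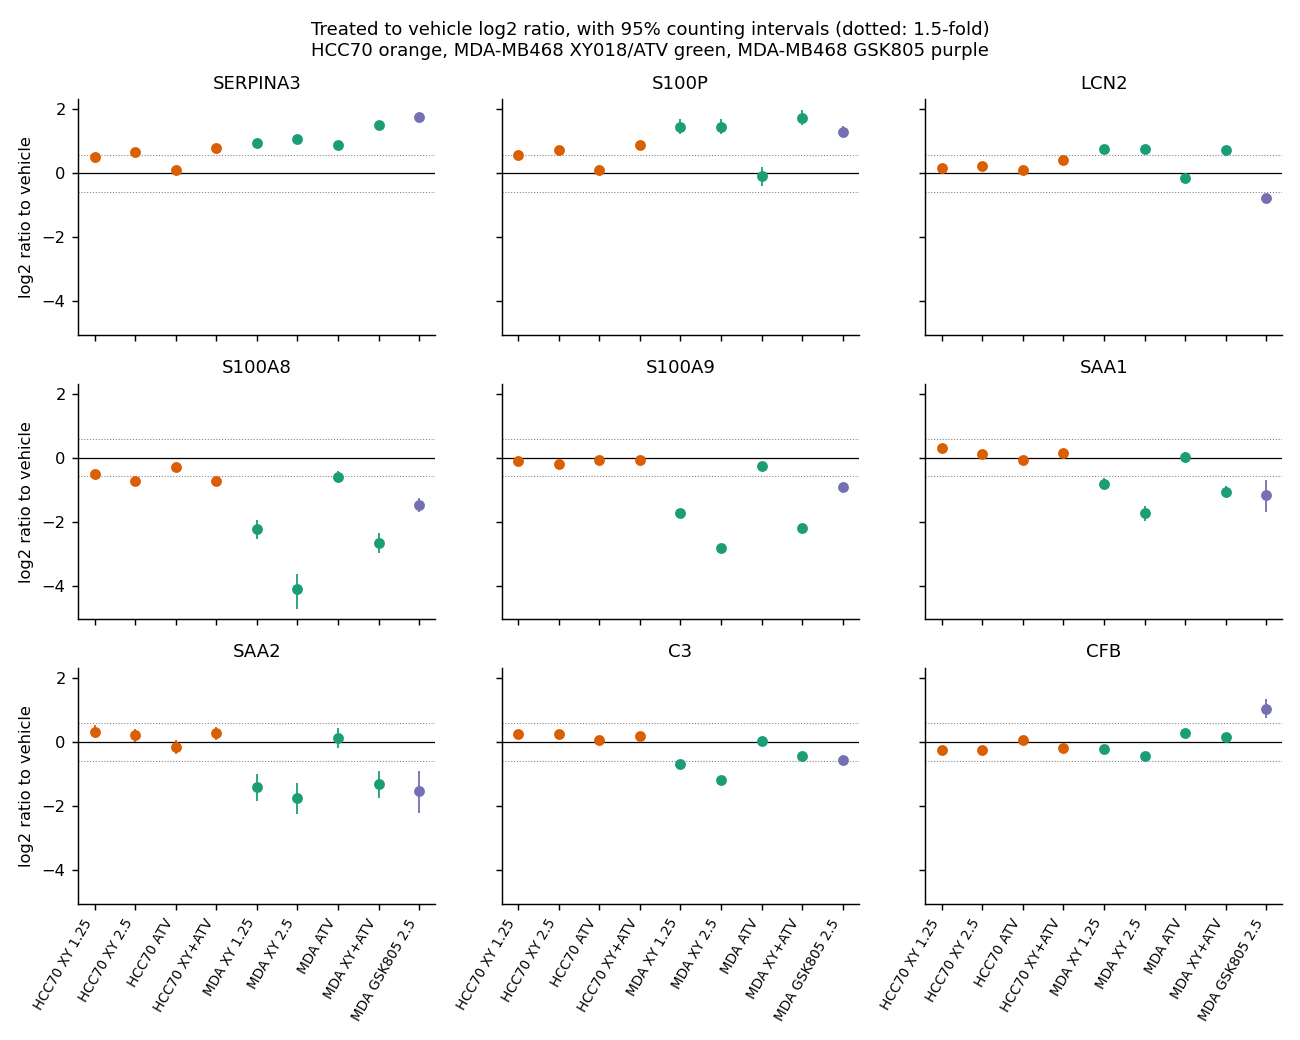
Log2 ratio of treated to vehicle FPKM for each of the 9 genes in the 9 comparisons, with 95% counting intervals as bars (hidden by the point where narrow) and dotted lines at 1.5-fold. SERPINA3 and S100P lie above 0 in every comparison with an antagonist, S100A8 lies below 0 in all 9, and SAA1, SAA2 and C3 lie above 0 with XY018 in HCC70 and below 0 with XY018 in MDA-MB468.

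In MDA-MB468 the calprotectin genes went the other way from S100P with both antagonists, and in HCC70 S100A8 did so while S100A9 stayed within 1.5-fold of vehicle. S100A8 (GRCh37 chr1:153362508-153363549, reverse strand) and S100A9 (chr1:153330330-153333499, forward strand) lie 29.0 kb apart and are transcribed in opposite directions. Their upstream windows, in GRCh38.p14 at chr1:153391074-153391273 (reverse strand) and chr1:153357654-153357853 (forward strand), are shown since their products form 1 complex and both were lower with the antagonists in MDA-MB468. Capitals mark TATAAA, which begins 29 bases before the start site in each.
S100A8: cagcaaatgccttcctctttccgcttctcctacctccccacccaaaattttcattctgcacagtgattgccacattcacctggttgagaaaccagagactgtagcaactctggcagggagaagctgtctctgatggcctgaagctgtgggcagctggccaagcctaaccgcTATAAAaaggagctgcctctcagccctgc
S100A9: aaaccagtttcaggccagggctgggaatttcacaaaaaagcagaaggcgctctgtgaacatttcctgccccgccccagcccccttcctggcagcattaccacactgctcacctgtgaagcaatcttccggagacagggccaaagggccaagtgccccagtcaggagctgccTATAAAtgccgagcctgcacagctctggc

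S100A8 was at 6155 FPKM in HCC70 with vehicle, 4349 FPKM with XY018 at 1.25 μM, 3687 FPKM with XY018 at 2.5 μM, 4988 FPKM with ATV and 3708 FPKM with both. All 4 treated libraries lay below vehicle, and the lowest was XY018 at the higher dose. In MDA-MB468 the values were 81.8, 17.3, 4.61, 54.2 and 12.9 FPKM in the same order. Vehicle was highest, ATV followed, and the 3 libraries with XY018 were well below both. With GSK805 S100A8 was at 129 FPKM against 357 FPKM with vehicle. The log2 ratio at 2.5 μM XY018 was −0.74 (interval −0.77 to −0.71) in HCC70 and −4.12 (−4.72 to −3.63) in MDA-MB468, where 5 of 11919 genes had a lower ratio. It was −1.47 (−1.70 to −1.25) with GSK805.

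S100A9 was nearly level in HCC70, at 8360 FPKM with vehicle and between 7322 and 8004 FPKM in the 4 treated libraries, with log2 ratios from −0.19 to −0.06. In MDA-MB468 it was at 551 FPKM with vehicle, 165 FPKM with XY018 at 1.25 μM, 78.4 FPKM with XY018 at 2.5 μM, 464 FPKM with ATV and 120 FPKM with both. The order of the 5 libraries was therefore that of S100A8, with vehicle and ATV high and XY018 low. GSK805 brought S100A9 from 1522 to 806 FPKM. The log2 ratios at 2.5 μM were −0.19 in HCC70, −2.81 (interval −2.93 to −2.71) with XY018 in MDA-MB468 and −0.92 (−0.99 to −0.85) with GSK805.

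Because both subunits are measured in the same library, their ratio can be compared across treatments. S100A8 stood at 0.736 of the FPKM of S100A9 in HCC70 with vehicle and at 0.504 with XY018 at 2.5 μM, and the ratio was lowest, at 0.463, with both compounds. In MDA-MB468 it was 0.148 with vehicle, 0.0588 with XY018 at 2.5 μM, 0.117 with ATV and 0.107 with both. In the GSK805 pair it was 0.234 with vehicle and 0.159 with the antagonist. S100A8 was thus lower relative to S100A9 in all 9 treated libraries than in the vehicle of the same table.

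**Figure D3:**
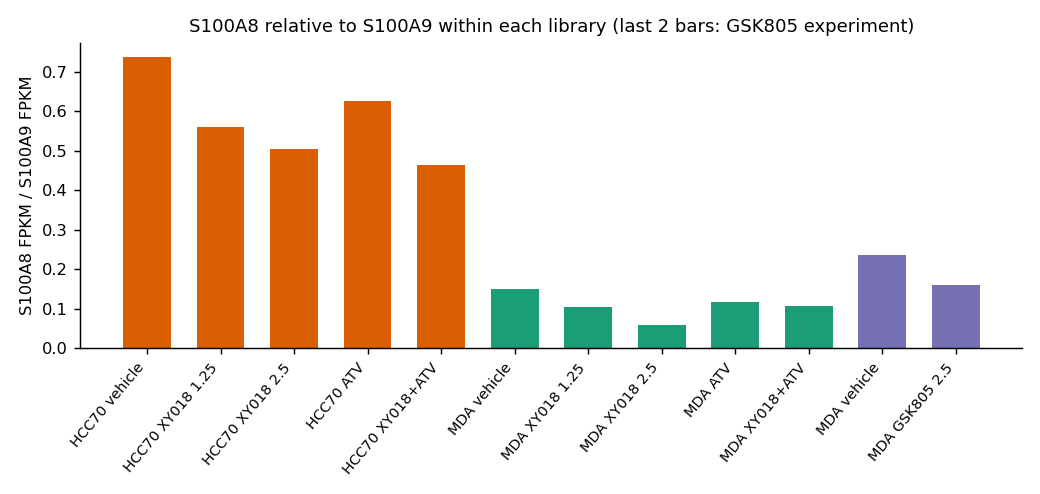
Bars show the FPKM of S100A8 divided by that of S100A9 in each of the 12 libraries, coloured by table. The ratio is highest with vehicle in each table, at 0.736, 0.148 and 0.234, and is lowest with both compounds in HCC70 (0.463) and with XY018 at 2.5 μM in MDA-MB468 (0.0588).

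Other S100 genes are given as background to S100P, S100A8 and S100A9. Of 17 further S100 genes, 11 could be compared in HCC70 with XY018 at 2.5 μM, 11 in MDA-MB468 with the same dose and 12 with GSK805. None of them was higher by 1.5-fold in these 3 comparisons, and 2, 6 and 5 were lower, with median log2 ratios of −0.32, −0.69 and −0.53 against medians of −0.02, 0.00193 and 0.00747 for all genes. In the same order, 2.62%, 14.1% and 17.6% of all genes were higher and 3.26%, 14.5% and 16.6% lower. S100 genes are short, and of genes with a transcript under 700 nt 3.97%, 11.95% and 24.96% were higher and 7.54%, 18.3% and 26.6% lower. That S100P was higher is how it was selected, and is no finding about the family. S100A7, psoriasin, another antimicrobial S100 protein of epithelia, was more abundant than calprotectin in HCC70, at 11038 FPKM with vehicle and 9769 FPKM with XY018 at 2.5 μM. In MDA-MB468 S100A7 was at 148 FPKM with vehicle and 9.22 FPKM with XY018 at 2.5 μM, a log2 ratio of −3.99 next to that of S100A8, and with GSK805 it was at 316 against 442 FPKM. The near-identical copy S100A7A makes the value of S100A7 uncertain. S100A10, the partner of annexin A2, had log2 ratios of −0.32, −0.96 and −1.02, S100A2 had −0.59, −1.35 and −0.26, and S100A4 had −0.47, −0.97 and −0.55. S100A2 in HCC70, counted as lower, lay at the 1.5-fold threshold. S100A3 was listed below 1 FPKM in HCC70 and had −1.43 and −1.86 in MDA-MB468, S100A1 likewise had −0.54 and −1.28, and S100A12, compared only in HCC70, had −0.83.

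**Figure D4:**
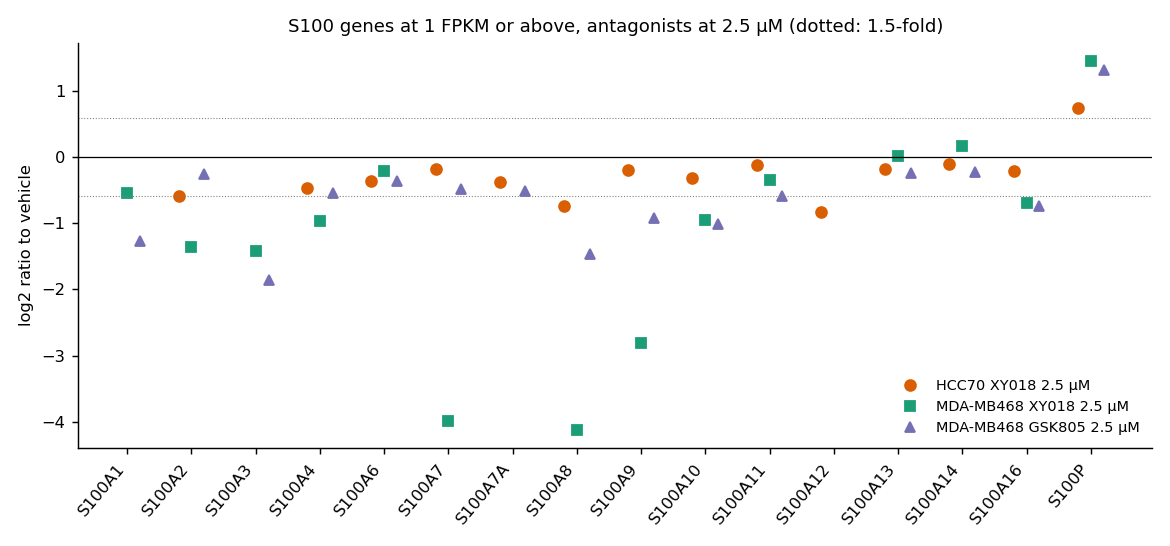
Log2 ratio of treated to vehicle FPKM of each S100 gene at 1 FPKM or above with the antagonists at 2.5 μM, with dotted lines at 1.5-fold. S100P lies at 0.73 or above in all 3 comparisons, no other S100 gene passes 1.5-fold upward, and S100A7 and S100A8 lie lowest, at −3.99 and −4.12, with XY018 in MDA-MB468. S100 genes are short, and over all genes with a transcript under 700 nt the median log2 ratio was −0.12, −0.08 and −0.05 in the 3 comparisons.

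LCN2 (GRCh37 chr9:130911350-130915732, forward strand) sided with S100P under XY018 and with calprotectin under GSK805. In HCC70 it was at 5323 FPKM with vehicle, 6031 FPKM with XY018 at 1.25 μM, 6299 FPKM with XY018 at 2.5 μM, 5756 FPKM with ATV and 7052 FPKM with both, every treated library lying above vehicle but none by 1.5-fold. In MDA-MB468 it was at 520, 884, 875, 473 and 870 FPKM in the same order, so that the 3 libraries with XY018 lay together above vehicle and ATV. In the GSK805 pair LCN2 was at 274 FPKM with vehicle and 162 FPKM with the antagonist. The log2 ratios at 2.5 μM were 0.24 in HCC70, 0.75 (interval 0.71 to 0.79) in MDA-MB468 and −0.76 (−0.88 to −0.64) with GSK805. The LCN2 promoter in RefSeq held an NF-κB match, GGGAATGTCC, beginning 176 bases before the start site, and a C/EBP match, TTGCCCAA, beginning 143 bases before it. These motifs occur in 1.22% and 9.05% of RefSeq promoters, and neither was found in the other 5 promoters.

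The serum amyloid A genes differed between the lines. SAA1 (GRCh37 chr11:18287807-18291524, forward strand) and SAA2 (chr11:18260770-18270215, reverse strand) lie 17.6 kb apart, and their transcripts are identical at 95.4% of 518 aligned bases, so that the share of reads given to each is uncertain. SAA1 was at 636 FPKM in HCC70 with vehicle, 781 FPKM with XY018 at 1.25 μM, 689 FPKM with XY018 at 2.5 μM, 600.1 FPKM with ATV and 705 FPKM with both. The 3 libraries with XY018 lay above vehicle by less than 1.5-fold. In MDA-MB468 the values were 74.1, 42.3, 22.4, 76.2 and 35.2 FPKM, with vehicle and ATV together and the XY018 libraries below them. The log2 ratio at 2.5 μM was 0.12 in HCC70 and −1.73 (interval −1.97 to −1.50) in MDA-MB468. With GSK805 SAA1 was at 18.7 against 42.3 FPKM, a log2 ratio of −1.18 (−1.69 to −0.69).

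SAA2 followed SAA1 at a lower level. It was at 66.8 FPKM in HCC70 with vehicle, 83.5 FPKM with XY018 at 1.25 μM, 77.2 FPKM with XY018 at 2.5 μM, 60.7 FPKM with ATV and 80.8 FPKM with both. In MDA-MB468 it was at 16.5, 6.18, 4.85, 18.0 and 6.59 FPKM, and in the GSK805 pair at 25.8 and 8.87 FPKM. The libraries with XY018 thus lay above vehicle in HCC70 and below it in MDA-MB468, as for SAA1. The log2 ratios at 2.5 μM were 0.21, −1.74 and −1.53. Within a library SAA1 stood at 8.73 to 9.89 times the FPKM of SAA2 in HCC70, at 4.22 to 6.84 times in the combination experiment in MDA-MB468, and at 1.64 and 2.10 times in the GSK805 pair.

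The complement genes C3 and CFB did not share a pattern. C3 (GRCh37 chr19:6677715-6730573, reverse strand) was at 335 FPKM in HCC70 with vehicle, 403 FPKM with XY018 at 1.25 μM, 396 FPKM with XY018 at 2.5 μM, 355 FPKM with ATV and 383 FPKM with both, all 4 above vehicle by less than 1.5-fold. In MDA-MB468 it was at 59.8, 37.6, 26.0, 60.7 and 44.5 FPKM, with vehicle and ATV level and the XY018 libraries below. With GSK805 C3 was at 125 against 185 FPKM, a log2 ratio of −0.57 (interval −0.62 to −0.52), just short of 1.5-fold. The log2 ratio with XY018 at 2.5 μM was 0.24 in HCC70 and −1.20 (−1.27 to −1.13) in MDA-MB468.

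CFB (GRCh37 chr6:31913427-31919863, forward strand) moved little with XY018. In HCC70 it was at 220 FPKM with vehicle and at 187, 186, 229 and 196 FPKM with XY018 at 1.25 μM, XY018 at 2.5 μM, ATV and both, and in MDA-MB468 at 37.1 FPKM with vehicle and 31.8, 27.7, 45.1 and 41.4 FPKM in the same order. In both lines the libraries with XY018 alone were the lowest and the ATV library the highest, all within 1.5-fold of vehicle. With GSK805 CFB was at 15.4 against 7.48 FPKM, a log2 ratio of 1.03 (interval 0.75 to 1.34). CFB has a second entry in that table that is listed near 0 in both libraries, and its upstream window in RefSeq held a STAT match, TTCCGGGAA, beginning 92 bases before the start site, and TATAAA beginning 30 bases before it. The STAT motif occurs in 6.57% of RefSeq promoters and in none of the other 5. SERPINA3, SAA2 and CFB overlap longer genes annotated on the same strand, and C3 overlaps GPR108 at its 5′ end, so that counting could have split their reads.

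In MDA-MB468 most of the genes that were lower with XY018 differed further between its doses, while those that were higher did not differ much. At 1.25 μM none of the 9 genes was higher or lower by 1.5-fold in HCC70, where 1.93% of genes were higher and 2.64% lower. In MDA-MB468 3 were higher and 5 lower at that dose, with 9.73% of genes higher and 8.38% lower. From 1.25 to 2.5 μM in MDA-MB468, S100A8 was lower by a further 1.89 on the log2 scale, as a difference of −1.89 (interval −2.53 to −1.33), S100A9 by −1.08 (−1.20 to −0.95), SAA1 by −0.92 (−1.18 to −0.67) and C3 by −0.53 (−0.61 to −0.46). SAA2 differed by −0.34 (−0.92 to 0.22), an interval that holds 0. The genes that were higher differed little between the doses in this line, S100P by −0.01 (−0.18 to 0.16), LCN2 by −0.02 (−0.05 to 0.02) and SERPINA3 by 0.10 (0.02 to 0.19). In HCC70 the higher dose gave more SERPINA3 by 0.16 (0.10 to 0.21), more S100P by 0.17 (0.06 to 0.28) and less S100A8, by −0.24 (−0.27 to −0.21).

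ATV alone left the 9 genes near vehicle in HCC70, with log2 ratios from −0.30 (S100A8) to 0.12 (SERPINA3) and 0 of 9 past 1.5-fold in either direction, where 2.22% of all genes were higher and 1.32% lower. In MDA-MB468 1 of the 9 was higher, SERPINA3, and 1 was lower, S100A8 at −0.59 (interval −0.78 to −0.41), where 1.37% of genes were higher and 0.803% lower. S100A8 lay at the threshold and was not counted with a pseudocount of 1 FPKM, nor after rescaling to a median log2 ratio of 0. The other 7 genes had log2 ratios from −0.25 (S100A9) to 0.28 (CFB). SERPINA3 was 48th from the highest ratio of the 11710 genes compared with ATV in that line.

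With XY018 and ATV together, 2 of the 9 genes were higher and 1 lower in HCC70, with 4.38% of genes higher and 2.93% lower, and 3 were higher and 4 lower in MDA-MB468, with 13.1% higher and 12.2% lower. Compared with XY018 alone at the same dose, the combination gave more SERPINA3 by 0.28 in HCC70 and 0.56 in MDA-MB468 on the log2 scale (intervals 0.23 to 0.34 and 0.48 to 0.64) and more S100P by 0.33 and 0.29. LCN2 was higher by 0.23 in HCC70 (0.21 to 0.24) and level in MDA-MB468 (−0.02, from −0.06 to 0.01). S100A8 was lower by the same comparison in both lines, at −0.23 and −0.42, whereas S100A9 was at 0.04 in HCC70 and −0.46 in MDA-MB468. C3 and CFB in MDA-MB468 were higher with both compounds than with XY018 alone, by 0.25 and 0.38.

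The wider acute phase and complement genes were given by lists chosen with earlier results known. Of 22 other acute phase genes, 10 could be compared in HCC70 with XY018 at 2.5 μM, 4 in MDA-MB468 with the same dose and 7 with GSK805, and 3, 1 and 3 were higher and 1, 2 and 1 lower, with medians of 0.29, −0.74 and 0.57 against −0.02, 0.00193 and 0.00747 for all genes. Of all genes 2.62%, 14.1% and 17.6% were higher and 3.26%, 14.5% and 16.6% lower. SAA4 and PTX3 in HCC70, and SAA4 and ITIH4 with GSK805, passed the filter through the treated library alone. Their direction was thereby fixed by the filter, and these higher calls are no result. HP, haptoglobin, was at 7.53 against 3.23 FPKM in HCC70 and was listed at or near 0 in MDA-MB468. CP, the copper protein ceruloplasmin, was at 2.75 against 19.5 FPKM in MDA-MB468 with XY018, a log2 ratio of −2.78, but at 133 against 115 FPKM in HCC70 and 173 against 132 FPKM with GSK805. TF, transferrin, was lower with both antagonists in MDA-MB468, at −1.21 and −1.16. FTL, the ferritin light chain, was at 1160 against 272 FPKM with XY018 and 406 against 234 FPKM with GSK805 in MDA-MB468, and at 2728 against 2925 FPKM in HCC70, though its processed copies elsewhere in the genome make its value uncertain. SAA4, the constitutive serum amyloid A, was at 3.23 against 0.45 FPKM in HCC70, at 3.42 against 4.16 FPKM in MDA-MB468, and at 2.19 FPKM with GSK805 against a vehicle value listed at practically 0, and ORM1, a near-copy of ORM2, was at 1.48 against 2.59 FPKM in HCC70.

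Of 18 further complement genes, 11, 12 and 13 could be compared in these 3 comparisons, and 1, 3 and 3 were higher and 2, 5 and 2 lower, with medians of −0.04, −0.35 and 0.05 beside −0.02, 0.00193 and 0.00747 for all genes. The shares over all genes were 2.62%, 14.1% and 17.6% higher and 3.26%, 14.5% and 16.6% lower, to which the GSK805 counts are close. SERPING1, the inhibitor of C1, was at 2.37 against 8.35 FPKM with XY018 in MDA-MB468, a log2 ratio of −1.77, and had 0.04 with GSK805. C2, the counterpart of factor B in the classical pathway, was at 0.80 with XY018 in MDA-MB468 and 1.21 with GSK805, and at −0.33 in HCC70. C5, the component cleaved after C3, was at −0.63 in HCC70 and within 1.5-fold elsewhere. C4A and C4B are near-identical copies, and the split between them is uncertain: in HCC70 C4A was at 3.68 against 0.67 FPKM while C4B was at 0.78 against 3.35 FPKM, and in MDA-MB468 with XY018 C4B was listed at 0 against 1.47 FPKM and C4A was at 1.66 against 2.84 FPKM. With GSK805 both copies were higher, C4A at 36.1 against 9.82 FPKM and C4B at 28.1 against 9.98 FPKM. C5 and both C4 copies in HCC70, and C4B with XY018 in MDA-MB468, passed the filter through 1 library alone, so that their direction there is no result.

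Among epithelial defence genes outside the 9, the protease inhibitors PI3 and SLPI were lower with XY018 in MDA-MB468 and near vehicle in HCC70. Of 22 such genes, 16, 8 and 9 could be compared in HCC70 and MDA-MB468 with XY018 and in MDA-MB468 with GSK805, and 1, 2 and 4 were higher and 4, 2 and 2 lower, with medians of −0.04, 0.34 and 0.20 against −0.02, 0.00193 and 0.00747 for all genes. These counts stand beside 2.62%, 14.1% and 17.6% of all genes higher and 3.26%, 14.5% and 16.6% lower. PI3, the elastase inhibitor elafin, was at 3903 against 3612 FPKM in HCC70, 52.4 against 444 FPKM with XY018 in MDA-MB468 (log2 ratio −3.08) and 139.6 against 413 FPKM with GSK805 (−1.56). SLPI, a related inhibitor of neutrophil elastase, had log2 ratios of 0.05, −1.31 and −0.19. DEFB1, the constitutive β-defensin of epithelia, was by contrast higher with both antagonists in MDA-MB468, at 64.2 against 19.4 FPKM and 154 against 48.4 FPKM, and level in HCC70 at 15.0 against 15.3 FPKM. In HCC70 DEFB4A, an inducible β-defensin, and TNIP3, an NF-κB regulator, had −0.96 and −0.88, IL36G, an IL-1 family cytokine, had 1.72 from 0.35 FPKM, and PIGR, the polymeric immunoglobulin receptor, was at 3.97 against 0.84 FPKM with GSK805. IL36G in HCC70 and PIGR with GSK805 passed the filter through the treated library alone. Their direction was thereby fixed by the filter, and these higher calls are no result.

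The cytokine and transcription factor genes known to act upstream of acute phase genes were also counted. Of 29, 26, 25 and 24 could be compared, and 4, 10 and 5 were higher and 0, 3 and 0 lower, with medians of 0.19, 0.18 and 0.28 against −0.02, 0.00193 and 0.00747 for all genes. Over all genes 2.62%, 14.1% and 17.6% were higher, near the list's share with GSK805, and 3.26%, 14.5% and 16.6% were lower. IL6R, the IL-6 receptor, was higher with XY018 in both lines, at 3.44 against 2.23 FPKM in HCC70 and 4.42 against 1.29 FPKM in MDA-MB468. With GSK805 it was at 1.89 against 0.0416 FPKM, and since it passed the filter there through the treated library alone, with a vehicle value below the 0.1 FPKM added before the ratio, that call was fixed by the filter and is no result. IL6ST and LIFR, the signalling chains of this receptor family, were higher with GSK805 at 2.28 and 1.81 and at −0.39 and −0.04 with XY018 in the same line. IL1A and IL1B were at 5.86 against 1.92 FPKM and 17.1 against 7.94 FPKM in HCC70 and listed at 0 in MDA-MB468 with XY018 and its vehicle, whereas TNF was at 9.28 FPKM there, a log2 ratio of 1.60. LIF had log2 ratios of 0.75, 0.67 and 0.05, and SOCS3, a STAT3 target that restrains the pathway, had −0.35, −1.24 and 0.41.

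Receptors of the secreted proteins were scarce. Of 12, 4, 5 and 4 could be compared, with 0, 1 and 1 higher and 0, 1 and 1 lower, and medians of −0.24, −0.08 and −0.16 against −0.02, 0.00193 and 0.00747 for all genes. With 2.62%, 14.1% and 17.6% of all genes higher and 3.26%, 14.5% and 16.6% lower, single genes in so short a list are no result. AGER, which encodes RAGE, was at 0.85 against 1.06 FPKM in HCC70 and 2.82 against 2.21 FPKM with XY018 in MDA-MB468. TLR2 was at −0.20, −0.13 and 1.12 on the log2 scale, SCARB1, which binds serum amyloid A, at −0.27, −0.08 and −0.89, and ITGB2, a chain of the C3 fragment receptors, at −0.08, −0.97 and −0.37. SLC22A17, a receptor for lipocalin 2, was listed at 0 in HCC70 and had 0.93 with XY018 and 0.06 with GSK805 in MDA-MB468.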

How the data were processed

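RNA-seq was available for 12 samples, 1 library per condition. Libraries were made with the TruSeq kit, reads were mapped to GRCh37/hg19 with BWA and Bowtie, and genes were quantified with Cufflinks, per the methods and the submitters' processing notes. The values the authors deposited are FPKM in 3 tables, each normalized on its own. No header states the unit, which was taken from the methods and the range of the values. No column belonged to no sample.

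From these values log2 ratios to the vehicle of the same table were computed with a pseudocount of 0.1 FPKM, for genes at 1 FPKM or above in either library. For a symbol listed more than once, the entry with the higher mean was kept. Ratios of at least 1.5-fold were counted without any test. Depth was estimated from the spacing of low FPKM values of genes with a single transcript, trying 13 offsets up to 240 nt to the transcript length, and gave Clopper-Pearson intervals at the 95% level. The offset with the best score was 0 to 40 nt in the first 2 tables and 200 nt in the GSK805 table, so depths are approximate. Both steps were tested on simulated data that had no length offset and changed only genes with many fragments. These tests therefore did not cover the 200 nt offset of the GSK805 table, nor genes with few fragments.

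The 9 genes, the other lists and the comparisons were chosen with earlier results of these data known. Named genes are the 9, those past 1.5-fold the same way in all 3 comparisons at 2.5 μM, the 3 of each list with the largest absolute ratio in each, and the 5 genes most like SERPINA3 and S100P. S100A7A, ORM2, GPR108, PTX3, ITIH4 and the marker genes were named after their values were seen. One gene that the rule names is not reported here. Positions in GRCh37 come from GENCODE 44 and promoters from RefSeq (GRCh38.p14). Alternatives were pseudocounts of 1 and 0.01, no filter, a filter at 5 FPKM, rescaling, a 2-fold threshold, the other MDA-MB468 vehicle for GSK805, every entry kept apart and, chosen after seeing the data, SAA1, SAA2 and SAA2-SAA4 summed. The tools were Python 3.11.15 with Biopython 1.88, matplotlib 3.10.9, scipy 1.17.1, pandas 2.3.3 and numpy 2.4.6.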

Additional observations from a re-analysis of the deposited data

Results flagged for a closer look

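In the following 5 cases the log2 ratio of a gene had opposite signs in a pair of settings, and none of the differences was tested, since each condition is 1 library. LCN2 in MDA-MB468 had a log2 ratio of −0.76 with GSK805 and 0.75 with XY018 at 2.5 μM, a difference of −1.51. CFB in the same line had 1.03 with GSK805 and −0.42 with XY018, a difference of 1.45. The value with XY018 is within 1.5-fold, and against the other MDA-MB468 vehicle CFB with GSK805 had −1.26, the same sign as with XY018. The other 3 genes, whose ratios in HCC70 were all within 1.5-fold, had opposite signs between the lines in all 3 libraries with XY018, and the differences of MDA-MB468 minus HCC70 at 2.5 μM were −1.84 for SAA1, −1.95 for SAA2 and −1.44 for C3. The log2 ratios in these libraries ran from −1.73 to −0.81 in MDA-MB468 and from 0.12 to 0.30 in HCC70 for SAA1, from −1.74 to −1.31 and from 0.21 to 0.32 for SAA2, and from −1.20 to −0.42 and from 0.19 to 0.27 for C3.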

How the results depend on the processing

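With 1 library per condition no statement here holds beyond these libraries, and no left-out-replicate analysis could be run. No paired analysis was possible because no condition has a replicate. Over the alternatives, 99 counts of the 9 genes stayed within 1.5 times the value given and 11 did not. The 99 include those with no filter and with the filter at 5 FPKM, which could not move because all 9 genes pass both. They also include GSK805 against the other MDA-MB468 vehicle, with 4 higher and 4 lower, although some genes changed direction there. With a threshold of 2-fold, 0 genes were higher and 0 lower in HCC70 with XY018 at 2.5 μM and with both compounds, and in MDA-MB468 with ATV. At that threshold 1 gene was higher and 3 were lower in MDA-MB468 with XY018 at 1.25 μM, and 3 were lower with GSK805. With ATV in MDA-MB468, 0 were lower with a pseudocount of 1 or after rescaling. Of the log2 ratios, 420 moved by less than the counting interval or not at all, 10 moved further and 3 of genes past 1.5-fold reversed. The 420 likewise include the ratios of both filter settings, which could not move. The reversals came with GSK805 set against the vehicle of the combination experiment, where S100A8 had 0.65, S100A9 0.55 and CFB −1.26, across tables normalized separately. SERPINA3 and S100P had 4.43 and 3.86 there, and C3, within 1.5-fold of its own vehicle at −0.57, had 1.06. With SAA1, SAA2 and SAA2-SAA4 summed, SAA2 with XY018 at 1.25 μM in MDA-MB468 had −0.89. The cause of these shifts was not tested. Depth limits the weakest values, such as S100A8 with XY018 at 2.5 μM and SAA2 in MDA-MB468.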
